A study of Homo sapiens with 6 samples.

Results

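XAF1, IFI6, IFI27, IFI35, TRANK1, EPSTI1 and LGALS3BP are 7 interferon-induced genes that were measured in PC-3, an established line of human prostate cancer cells that came from a bone metastasis. The 7 were picked by symbol from the 58302 genes of the deposited table because earlier results of these data showed them much higher in BHLHE22 cells, so their difference between the groups is given as a description, with no test. The study compared 3 libraries of PC-3 cells given a blank-vector lentivirus with 3 libraries of the same line given a lentivirus for overexpression of BHLHE22, which is a transcription factor of the basic helix-loop-helix family. All 6 libraries thus come from 1 cell line after lentiviral delivery, and cells with no virus were not analysed here. The labels give neither a time after infection nor whether the 3 libraries of a group were separate cultures, so p-values measure no more than library-to-library spread, and that spread may be technical.

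Interferons are cytokines that cells release when they sense foreign or misplaced nucleic acid. Type I interferon binds the receptor chains IFNAR1 and IFNAR2, the kinases JAK1 and TYK2 phosphorylate STAT factors such as STAT2, and these join IRF9 in a complex that binds interferon-stimulated response elements (ISREs) in promoters. The 7 genes are textbook targets of this pathway or are listed among its targets. Their products act in different places: IFI6 and IFI27 are small hydrophobic proteins of 1 family that are found in mitochondria and other membranes, XAF1 binds the caspase inhibitor XIAP and promotes apoptosis, IFI35 is a leucine-zipper protein that pairs with NMI, and LGALS3BP is a secreted glycoprotein that binds galectins.

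The ISRE is a repeat of GAAA with 2 bases between, so the core searched was GAAA, any 2 bases, GAAA, on both strands, in promoters of RefSeq (GRCh38.p14) that run from 250 bases before to 50 bases after a start site. All 7 genes had an entry, with 9 promoters in all since IFI27 and XAF1 have a second start. The core was found in 4 of the 7 genes, namely IFI6, IFI27, EPSTI1 and LGALS3BP, and in 3.57% of all 35116 promoters, or 4.38% of 27305 genes. The longer form, in which CT follows the second GAAA, was found in IFI6, IFI27 and EPSTI1 and in 0.322% of genes. A form with 1 base between the repeats, GAAANGAAA, was added after these promoters had been read, and it was found in XAF1 and IFI35 and in 3.87% of genes. The stretches below show these matches in capitals, 5′ to 3′ on the gene's strand. No sequence was used to choose the genes, but they were chosen as interferon-induced genes, and the 1-base form came from these promoters. The matches are therefore a description and no independent evidence.
IFI6: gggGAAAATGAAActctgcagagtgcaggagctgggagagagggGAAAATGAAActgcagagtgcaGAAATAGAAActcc
IFI27: cagTTTCGGTTTCctgGAAAATGAAAccta
EPSTI1: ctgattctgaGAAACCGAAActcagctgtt
LGALS3BP: gtggtttctgGAAATCGAAAgtagactctt
XAF1: ttgcctgcaaGAAACGAAActcaaccgaaa
IFI35: ggatttcacgGAAATGAAAgtggaagcaaa

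On GRCh38.p14 these lie at chr1:27672272-27672351 (minus strand) for IFI6, chr14:94110625-94110654 (plus) for IFI27, chr13:42992272-42992301 (minus) for EPSTI1, chr17:78979962-78979991 (minus) for LGALS3BP, chr17:6756031-6756060 (plus) for XAF1 and chr17:43006758-43006787 (plus) for IFI35. IFI6 had 3 cores between 156 and 84 bases before its start. IFI27 had 2 cores, of which the first is read on the opposite strand. The XAF1 match spans 1 of its start sites, and the promoter of its other start had no match of either spacing. In TRANK1 neither spacing was in the window. A binding element of STAT dimers, TTCNNNGAA, was found in IFI27, IFI35 and EPSTI1 and in 9.38% of genes; in these 3 promoters it overlaps a repeat match shown above. The E-box CANNTG, the general site of basic helix-loop-helix factors, was found in all 7 genes and in 73.1% of all genes. By promoter it was in 8 of 9, and the XAF1 promoter with the repeat match lacked it. The E-box CATATG was found in 0 of the 7 and in 3.72% of all genes. A match describes letters in these windows and says nothing of binding.

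IFI6 (ENSG00000126709, chromosome 1, 27666061 to 27672218, minus strand), whose product opposes the release of cytochrome c from mitochondria, had 9.30, 15.0 and 11.9 CPM, which are reads per 1e6 after scaling of library sizes, in vector replicates 1 to 3. In BHLHE22 replicates 1 to 3 it had 642, 656 and 623 CPM. The groups were far apart, and the BHLHE22 libraries lay closer to each other than the vector libraries, with coefficients of variation of 2.62% and 23.7%. The log2 fold change was 5.72 (SE 0.18), a 52.9-fold difference. These are bulk RNA values, in which fewer cells that express a gene and less RNA per cell cannot be told apart.

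IFI27 (ENSG00000165949, chromosome 14, 94104836 to 94116698, plus strand) is the relative of IFI6 whose product is reported in mitochondria and at the nuclear envelope. It had 4.39, 4.28 and 2.61 CPM in the vector libraries, the last from 37 reads, and 65.5, 66.4 and 57.9 CPM in the BHLHE22 libraries. Replicate 3 was the lowest of each group, and the groups did not overlap. The difference was 16.8-fold (log2 fold change 4.07, SE 0.20).

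XAF1 (ENSG00000132530, chromosome 17, 6755447 to 6775647, plus strand), the gene of the XIAP-binding factor, was close to the detection limit in vector cells. Its reads were 0, 2 and 0 across the vector libraries and 110, 104 and 64 across the BHLHE22 libraries. In CPM these are 0, 0.136 and 0 against 8.58, 7.46 and 3.84, and a single vector library held all vector reads. The count ratio after scaling was 135, with an exact 95% interval of 37.0 to 1119 that covers counting error only. The fitted log2 fold change of 6.88 depends on the prior count and rests on those 2 reads: without vector replicate 2 it was 9.55.

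EPSTI1 (ENSG00000133106, chromosome 13, 42886388 to 42992271, minus strand), first described as a gene induced in epithelial tumour cells by contact with stromal cells, was also scarce. It had 5, 3 and 2 reads in the vector libraries and 62, 75 and 112 in the BHLHE22 libraries, or 0.378, 0.204 and 0.141 CPM against 4.84, 5.38 and 6.72 CPM. Every BHLHE22 library was above every vector library. The log2 fold change was 4.52 (SE 0.32), a 23.0-fold difference.

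TRANK1 (ENSG00000168016, chromosome 3, 36826820 to 36945057, minus strand), which encodes a large protein with tetratricopeptide and ankyrin repeats, had 5.90, 5.17 and 6.06 CPM in vector cells. Its BHLHE22 values were 57.0, 57.5 and 66.4 CPM, with replicate 3 the highest in each group. The difference was 10.6-fold (log2 fold change 3.40, SE 0.12). GENCODE release 29 places the same start but a later end for this gene than the deposited table, and the other 6 genes have identical positions in both.

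IFI35 (ENSG00000068079, chromosome 17, 43006725 to 43014456, plus strand), the partner gene of NMI, had 4.61, 5.51 and 5.14 CPM in vector cells and 33.1, 31.4 and 37.4 CPM in BHLHE22 cells. Coefficients of variation were 8.84% and 9.04%, nearly the same in both groups. The log2 fold change was 2.74 (SE 0.13), a 6.66-fold difference.

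LGALS3BP (ENSG00000108679, chromosome 17, 78971238 to 78980109, minus strand), the gene of the secreted galectin-binding glycoprotein, was the most abundant of the 7 in vector cells. It had 182, 166 and 168 CPM there and 798, 815 and 740 CPM in BHLHE22 cells, from at least 2383 reads in each library. The log2 fold change of 2.19 (SE 0.08), a 4.56-fold difference, was the smallest of the 7. It was 2.33 with unscaled library sizes.

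**Figure D1:**
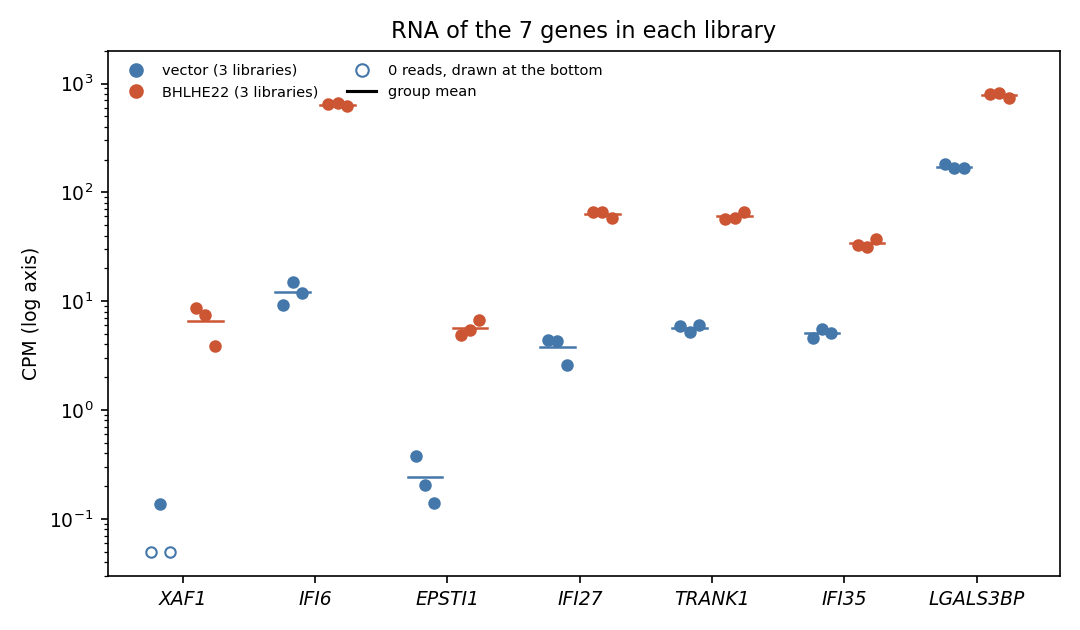
CPM of each gene (log axis) in the 3 vector and 3 BHLHE22 libraries, with the group means as lines (the XAF1 vector mean, 0.0453, is too low to be drawn) and libraries with 0 reads as open points at the bottom. In all 7 genes the groups do not overlap; XAF1 has 0 reads in 2 of the 3 vector libraries.

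The 7 log2 fold changes ran from 2.19 to 6.88 with a median of 4.07, beside a median of 0.00 over the 15945 tested genes. Among all tested genes ranked by rise, XAF1 was at place 5, IFI6 at 7, EPSTI1 at 14, IFI27 at 21, TRANK1 at 43, IFI35 at 85 and LGALS3BP at 167. All 7 were higher in every BHLHE22 library than in any vector library, which held for 30.6% of tested genes, and all 7 passed an adjusted p under 0.05 in that direction, as did 25.1% of tested genes; these counts follow from how the 7 were chosen. XAF1 and EPSTI1 passed the low-count filter only through the BHLHE22 group, since they had fewer than 10 reads in every vector library. The other 5 genes had at least 10 reads in all 6 libraries.

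**Figure D2:**
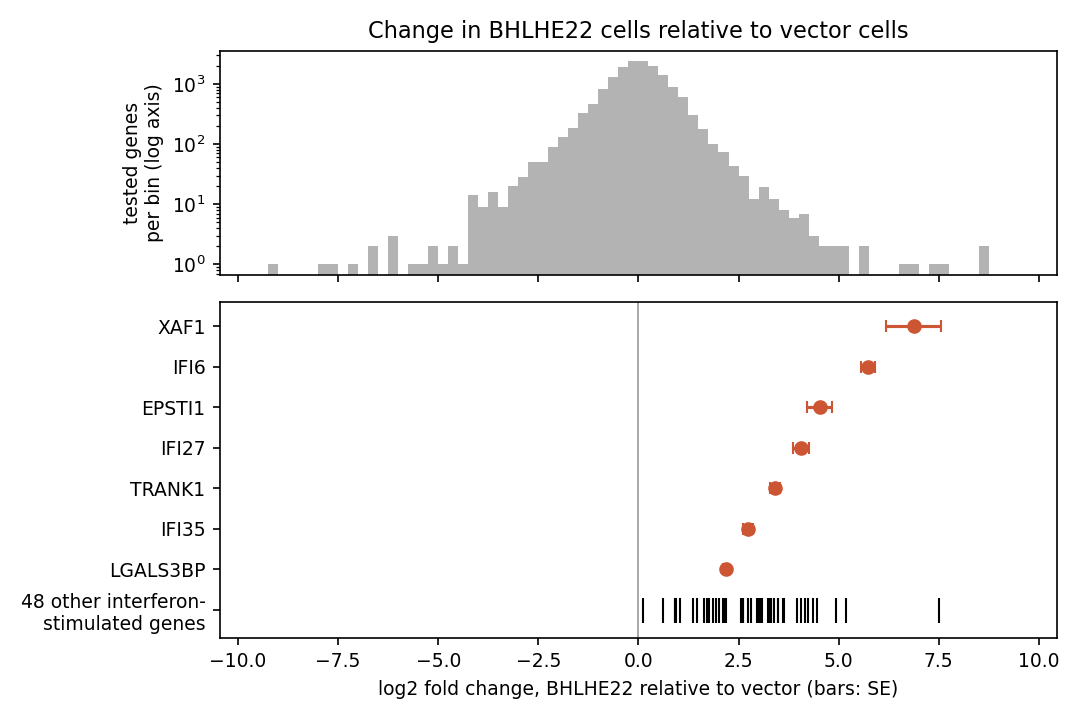
The upper histogram counts all 15945 tested genes (log axis) by log2 fold change, and the lower panel shows the 7 genes with their SE above the 48 other tested interferon-stimulated genes, 1 tick each. The 7 genes sit between 2.19 and 6.88, inside the span of the listed genes, which ends at 7.51.

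Levels can be compared between genes only per length. The authors' FPKM is not suited to this here, because its implied length for LGALS3BP is 13309 bases, more than the 8.87 kb the gene spans. CPM was therefore divided by the summed length of each gene's merged exons in GENCODE release 29, which does not say which transcripts these cells use. On this scale the vector order was LGALS3BP (47.98 ± 2.55 CPM per kb, SD, n = 3), IFI6 (13.96 ± 3.31), IFI35 (2.58 ± 0.23), IFI27 (0.906 ± 0.241), TRANK1 (0.469 ± 0.039), EPSTI1 (0.0489 ± 0.0250) and XAF1 (0.0069 ± 0.0119), with no overlap between neighbours in the order. The closest values of EPSTI1 and XAF1, in vector replicates 3 and 2, came from 2 reads each. Their 95% counting intervals, 0.0171 to 0.509 and 0.0165 to 0.491 CPM, overlapped. In BHLHE22 cells IFI6 came first with 740 ± 19 CPM per kb, ahead of LGALS3BP with 219 ± 11.

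IFI35 and IFI27 followed with 17.2 ± 1.6 and 15.3 ± 1.1 CPM per kb and overlapped, so their order in BHLHE22 cells is not set by these libraries. TRANK1 had 4.95 ± 0.44. EPSTI1 and XAF1 closed the order with 1.15 ± 0.20 and 1.00 ± 0.37, and their ranges overlapped too. Among all tested genes IFI6 moved from percentile 77.3 of level per length in vector cells to 99.8 in BHLHE22 cells, and IFI27 from 17.6 to 79.4. XAF1 reached only percentile 19.3 and EPSTI1 21.1 in BHLHE22 cells, so although both were among the 4 highest fold changes of the 7, their level stayed low among expressed genes.

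The 3 BHLHE22 libraries did not order the 7 genes alike. XAF1 was lowest in replicate 3, at 57.9% of its group mean, and its 95% counting interval there, 2.96 to 4.90 CPM, did not reach those of replicate 1 (7.06 to 10.3) and replicate 2 (6.10 to 9.04). IFI6, IFI27 and LGALS3BP were also lowest in replicate 3, but at 97.3%, 91.5% and 94.3% of their means. EPSTI1, TRANK1 and IFI35 were instead highest in that library, at 119%, 110% and 110% of their means. BHLHE22 itself had 7.65, 6.6 and 7.98 CPM in BHLHE22 replicates 1 to 3, from 98, 92 and 133 reads. No counting interval was computed for it, so its order between these libraries is not set. Its part in these differences was not tested. The 7 genes together summed to 1609, 1640 and 1535 CPM in these libraries and to 207, 196 and 194 CPM in the vector libraries, mostly from IFI6 and LGALS3BP.

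**Figure D3:**
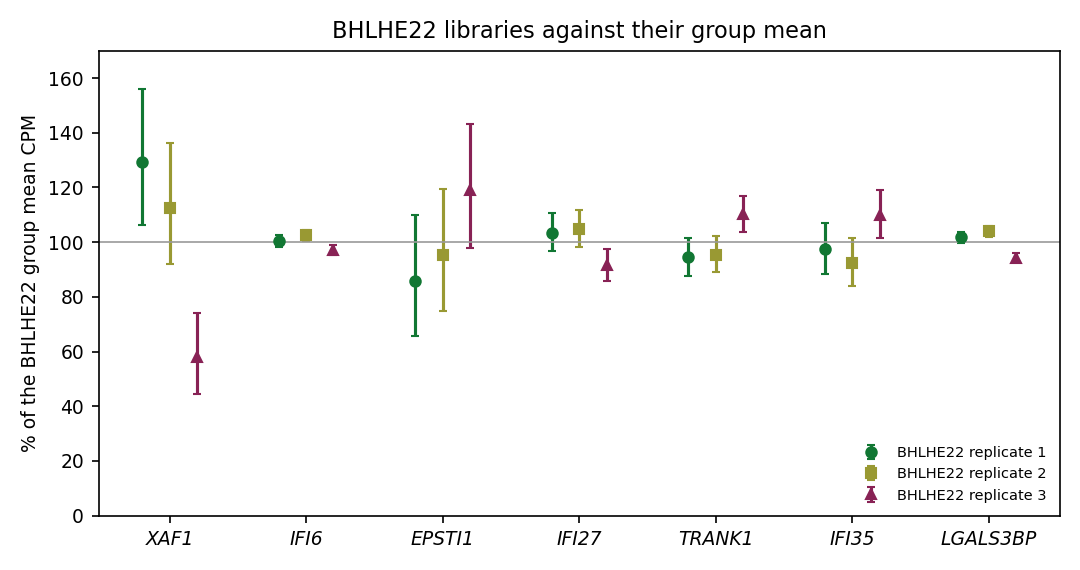
CPM of each gene in BHLHE22 replicates 1, 2 and 3 as a percentage of the group mean, with exact 95% intervals for counting error. XAF1 in replicate 3 is at 57.9% of its mean, while EPSTI1, TRANK1 and IFI35 are above their means there.

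The genes most like each of the 7 were found by the smallest root mean square difference in log2 CPM over the 6 libraries. Values were centred on the vector mean, and a prior count of 2 was added to the reads. This measure holds the same contrast, so it is a description. For LGALS3BP these were UBE2L6, the ISG15-conjugating enzyme gene (difference 0.08), and the noncoding gene HCP5 (0.09). For TRANK1 they were OAS2 and OAS3 (0.10 and 0.13), genes of enzymes that make the activator of RNase L. PARP9, an ADP-ribosyltransferase family gene, and NCKAP5 were nearest to IFI35 (0.13 and 0.14). IFI27 had C15orf48 and IFI44 (0.18 and 0.19), and EPSTI1 had MAP7D3 and IFI44 (0.21 and 0.28). XAF1 and IFI6 shared the same pair, OASL (0.44 and 0.42) and BHLHE22 (0.52 and 0.48), at the greatest distances. The prior count shrinks the differences of genes with few reads, so distances of such genes depend on it. Vector reads were 0, 2 and 0 for XAF1, 1 in each library for BHLHE22, 3, 1 and 0 for MAP7D3 and 6, 5 and 6 for HCP5. Within the 7, IFI27 and EPSTI1 were closest to each other (0.27).

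Other interferon-stimulated genes were higher almost throughout. A list without the 7 held 48 tested genes: 47 rose, 0 fell and 1 missed the threshold, where 25.1% of all tested genes rose. The list was drawn up with earlier results of these data known, so it is no independent evidence. The list's median log2 fold change was 2.68, a 6.41-fold difference, against 4.07 for the 7, and 6 of the 7 were above it; LGALS3BP was below. Smallest p-values belonged to BST2, the gene of tetherin, ISG15, IFI44 and DDX60, with log2 fold changes of 7.51, 4.15, 4.06 and 4.36 (adjusted p = 5.95e-07, 5.95e-07, 8.59e-07 and 1.78e-06, edgeR quasi-likelihood). TRIM25, a ubiquitin ligase gene, was the gene that did not pass (224 ± 3 and 243 ± 30 CPM, adjusted p = 0.343), and DHX58 was listed at 0 in all libraries.

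Upstream of these targets, genes of transcription factors, among them STAT2, IRF9 and IRF1, were higher, and no receptor or kinase gene passed the test. Among the 9 type I signalling genes, all tested, 4 rose and 0 fell while 5 missed the threshold. These counts stand beside 25.1% of all tested genes that rose and 24.3% that fell. The list had a median log2 fold change of 0.13. STAT2 (163 ± 17 and 207 ± 6 CPM), IRF9 (22.9 ± 4.2 and 33.2 ± 5.7 CPM) and IRF1 (21.8 ± 2.3 and 27.9 ± 0.7 CPM) rose by 0.34, 0.53 and 0.36 on the log2 scale (adjusted p = 0.0176, 0.0366 and 0.0318). IFNAR1, IFNAR2, JAK1, TYK2 and IRF3, the factor that acts upstream of interferon genes, had log2 fold changes of -0.08, 0.13, 0.12, -0.18 and -0.18 and did not pass. With unscaled library sizes, a scaling that moves the median of all genes to 0.15, IFNAR1 was at 0.07 and IFNAR2 and JAK1 passed (0.27 each, adjusted p = 0.0424 and 0.0137).

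None of these 3 calls held through every omission of a single library, and a refit with fewer libraries also has less power. STAT2 lost its call without vector replicate 1 (adjusted p = 0.0566). IRF9 lost it without BHLHE22 replicate 1 (0.109) or 2 (0.0573) or vector replicate 2 (0.0917) or 3 (0.0617). IRF1 lost it without any BHLHE22 replicate or vector replicate 1 or 3, with adjusted p from 0.0503 to 0.0746. Only 2 of the 9 genes rose without BHLHE22 replicate 1 or 2 or vector replicate 1 or 3.

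Interferon genes themselves were at or near the detection limit. Of 10 ligand genes 4 had no read in any library, and 1, IFNE, had enough reads for a test. IFNB1, the gene of interferon beta, had 0 reads in each vector library and 3, 3 and 5 in the BHLHE22 libraries. After scaling these were 3.56-fold above a floor of 3 counts over the vector group, a figure that leaves out their own counting error. IFNL1, a type III interferon gene, had 1, 0 and 0 reads in the vector libraries and 5, 0 and 5 in the BHLHE22 libraries, so the groups overlapped. The ratio of the pooled reads was 9.70 after scaling, with an exact 95% interval of 1.38 to 421 that covers counting error only and not the spread between libraries. Reads of 2 further genes were in vector libraries only, with 2, 2 and 0 for IFNA1 and 0, 2 and 0 for IFNK. IFNL3 had 1 read, in BHLHE22 replicate 1. IFNE, an epithelial interferon gene, was instead lower in BHLHE22 cells, with 1.03 ± 0.27 CPM next to 3.52 ± 0.67 (log2 fold change -1.76, SE 0.27, adjusted p = 0.00155).

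Of 8 genes that restrain the pathway, all tested, 3 rose, 0 fell and 5 missed the threshold. Over all tested genes 25.1% rose and 24.3% fell. SOCS1, an inhibitor of JAK kinases, rose by 2.33 on the log2 scale (0.337 ± 0.126 and 1.72 ± 0.16 CPM, adjusted p = 0.00102). Its reads were 6, 3 and 5 in the vector libraries and 24, 24 and 26 in the BHLHE22 libraries. SOCS1 thus passed the low-count filter only through the BHLHE22 group, so its p-value gives no independent support for its rise. USP18, which removes ISG15 and blocks IFNAR2 and is itself on the list of stimulated genes, rose by 2.19 (adjusted p = 0.000117). SOCS3 rose by 0.42 (adjusted p = 0.0250); its call ended without BHLHE22 replicate 1 (0.0739) or 2 (0.0599) or vector replicate 2 (0.0715) or 3 (0.0660).

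Among genes whose products work with XAF1 in apoptosis, XIAP itself did not pass. XIAP had 25.8 ± 4.7 CPM in vector and 19.4 ± 4.8 in BHLHE22 cells (log2 fold change -0.41, SE 0.21, adjusted p = 0.131), although it passed without BHLHE22 replicate 1 (-0.63, adjusted p = 0.0283). The list has 13 genes, all tested: 5 rose, 0 fell and 8 missed the threshold, where 25.1% of all tested genes rose and 24.3% fell. TNFSF10, the gene of the death ligand TRAIL, rose by 1.33 on the log2 scale (3.66 ± 0.38 and 9.21 ± 0.69 CPM, adjusted p = 0.000477), and its receptor gene TNFRSF10A by 0.56 (adjusted p = 0.0205). The latter call ended without BHLHE22 replicate 2 (0.0612) or 3 (0.0624) or vector replicate 2 (0.0603). BIRC5 and BIRC3, further genes of the inhibitor of apoptosis family, rose by 1.18 and 0.68 (adjusted p = 0.000533 and 0.00318).

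The paralogues of IFI27 on either side of it overlapped between the groups. IFI27L1 ends 0.989 kb before IFI27 and had 6.66, 6.6 and 5.92 CPM in vector and 7.26, 5.02 and 5.40 CPM in BHLHE22 libraries. IFI27L2 lies 11.1 kb after it and had 6.96, 5.92 and 8.80 against 6.71, 11.8 and 9.36 CPM. Their log2 fold changes were small beside the 4.07 of IFI27, at -0.12 (SE 0.18, adjusted p = 0.605) and 0.37 (SE 0.24, adjusted p = 0.234). SKP2, the gene of an F-box protein reported to bind IFI27, rose by 1.40 (adjusted p = 0.000894). HSPA5, the gene of the endoplasmic reticulum chaperone BiP reported to stabilise IFI6, had a log2 fold change of -0.47 (adjusted p = 0.0609). It passed without BHLHE22 replicate 1 (-0.66, adjusted p = 0.0109). In this list of 6 genes, 1 rose and 5 missed the threshold, where 25.1% of all tested genes rose and 24.3% fell.

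NMI, whose product forms a complex with IFI35, had 4.23 ± 1.07 CPM in vector and 24.6 ± 1.1 in BHLHE22 cells. Its rise of 2.54 on the log2 scale (SE 0.19, adjusted p = 0.000122) stands next to 2.74 for IFI35. Of the 7 tested galectin and surface partner genes of LGALS3BP, 2 rose, 1 fell and 4 missed the threshold. The shares over all tested genes were 25.1% for rises and 24.3% for falls. LGALS3, the gene of galectin-3, rose by 0.38 on the log2 scale (105 ± 10 and 137 ± 8 CPM, adjusted p = 0.0124), and ITGB1, the gene of integrin beta 1, by 0.39 (adjusted p = 0.0160). CD9, a tetraspanin gene, fell by 0.42 (adjusted p = 0.0191). ITGB1 lost its call without BHLHE22 replicate 2 (0.0680) or vector replicate 1 (0.0578), and CD9 without vector replicate 2 (0.0609) or with unscaled library sizes (0.0739). LGALS1 had a log2 fold change of 0.21 (adjusted p = 0.0663), and passed without BHLHE22 replicate 3 (0.28, adjusted p = 0.0297) or with unscaled library sizes (0.36, adjusted p = 0.0111). LGALS9, the galectin-9 gene, had 0 reads in vector cells and 8, 11 and 9 in the BHLHE22 libraries, and was too scarce for the test. After scaling its BHLHE22 reads were 9.06-fold above a floor of 3 counts over the vector group, which leaves out their own counting error.

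**Figure D4:**
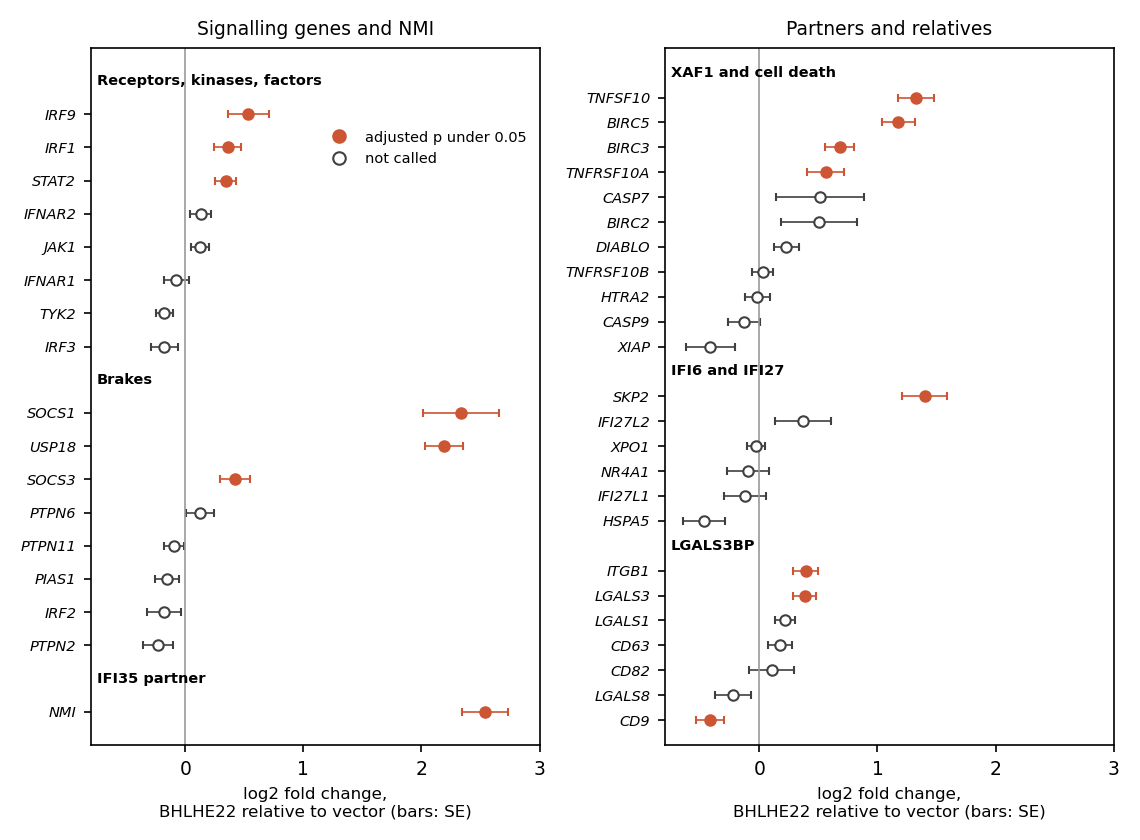
Log2 fold changes with SE of tested signalling and brake genes and NMI (left) and of the other partner and relative genes (right), with filled points at an adjusted p under 0.05. SOCS1 at 2.33, USP18 at 2.19 and NMI at 2.54 stand apart from receptors and kinases, which lie between -0.18 and 0.13. SOCS1 had fewer than 10 reads in every vector library.

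Genes beside the 7 on the chromosome gave a test that their choice did not touch. Of the 14 nearest tested neighbours, 1 rose, 3 fell and 10 missed the threshold, beside 25.1% of all tested genes that rose and 24.3% that fell. The median log2 fold change of the neighbours was 0.10. IFI35 is flanked by RPL27, a ribosomal protein gene 3.77 kb before it, and VAT1, 0.148 kb after it on the other strand. RPL27 fell by 0.42 on the log2 scale (153 ± 3 and 114 ± 4 CPM, adjusted p = 0.00243) and VAT1 by 0.47 (218 ± 9 and 157 ± 24 CPM, adjusted p = 0.0111), so both differed in the direction opposite to IFI35. AKAP11, 563 kb from EPSTI1, fell by 0.33 (adjusted p = 0.0299), a call that ended without BHLHE22 replicate 2 (0.0506) or 3 (0.0714), without vector replicate 1 (0.0977), 2 (0.0574) or 3 (0.0518), with no low-count filter (0.0567) and with unscaled library sizes (0.180).

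The neighbour that rose, AL031729.1, is a processed pseudogene 16.5 kb from IFI6 (log2 fold change 1.00, adjusted p = 0.00258), and its reads may be shared with its parent gene. On the other side of IFI6, FAM76A had 0.14. TRANK1 lies between HSPD1P6 (0.48) and EPM2AIP1 (0.15), XAF1 between AC004706.3 (-0.06) and ALOX12P2 (0.00), and DNAJC15 beyond EPSTI1 had 0.15; none of these passed, except that EPM2AIP1 passed with unscaled library sizes (0.30, adjusted p = 0.0151).

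Around LGALS3BP both neighbours varied widely within the groups. TIMP2, a metalloproteinase inhibitor gene, had 140, 133 and 320 CPM in vector and 379, 191 and 362 CPM in BHLHE22 libraries. CANT1, a nucleotidase gene on the other side, had 171, 185 and 55.5 against 84.4, 257 and 89.2 CPM, high in the libraries where TIMP2 was low. LGALS3BP between them kept coefficients of variation of 5.31% and 5.04%. Neither neighbour passed (log2 fold changes 0.65 and 0.06, adjusted p = 0.273 and 0.946), but without vector replicate 3 TIMP2 passed (1.19, adjusted p = 0.0319). The 4 genes of the table that overlap XAF1, IFI6, TRANK1 or EPSTI1 had at most 2 reads each over the 6 libraries; how reads in the overlaps were assigned is not given in the sources used here.

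**Figure D5:**
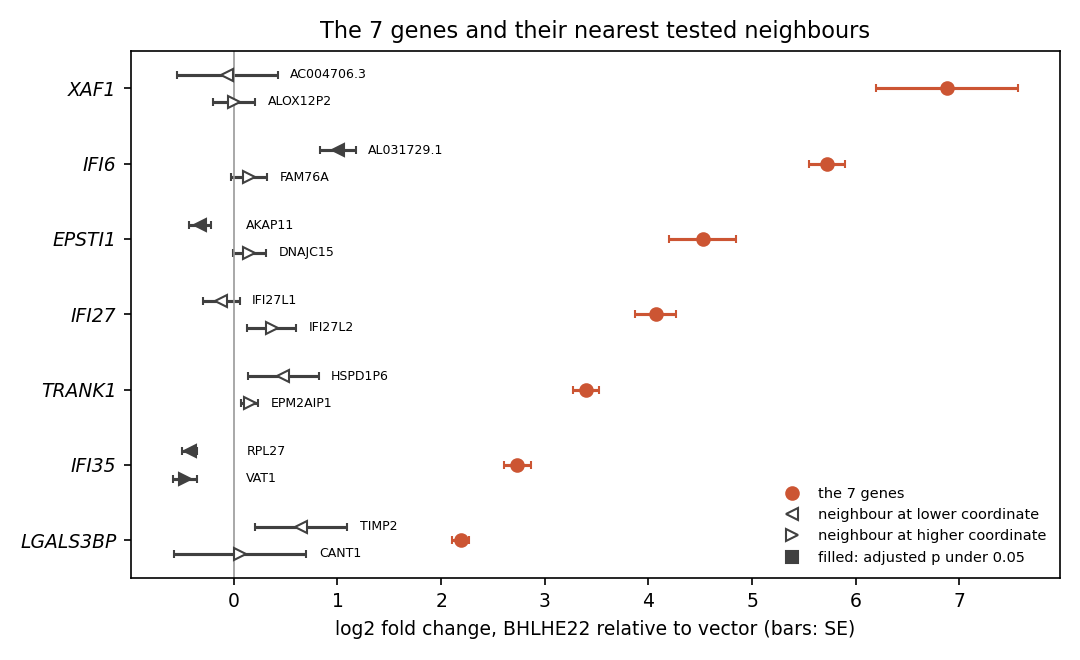
Log2 fold change with SE of each of the 7 genes (circles) and of its nearest tested neighbour at lower and higher coordinates (triangles, filled at an adjusted p under 0.05). The 7 genes lie at 2.19 or above, and their neighbours between -0.47 and 1.00.

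Summed counts per library ran from 12186723 to 15949537. BHLHE22 had 1 read in each vector library and 98, 92 and 133 in the BHLHE22 libraries, matching the labels. Of 14 leukocyte and blood markers 6 were at 0 in all libraries, and the list summed to 2.65 to 3.67 CPM in vector and 0.789 to 1.62 CPM in BHLHE22 libraries. The 7 stromal and endothelial markers summed to 119 to 139 and 67.3 to 76.4 CPM. Of these 3 were tested and all 3 were lower, where 24.3% of all tested genes fell. The part of either list in the results was not tested. All 6 epithelial markers were detected and tested, while the luminal prostate marker KLK3 was at 0. Libraries of 1 group differed beyond sampling noise, with a chi-square of 11.7 to 24.8 for each degree of freedom, so none was a copy of another. These values cannot tell separate cultures from separate preparations of the same RNA.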

How the data were processed

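RNA sequencing of PC-3 cells gave 6 libraries, 3 with vector and 3 with BHLHE22. The authors deposited whole-number read counts per gene and FPKM values, per the file headers; FPKM served only to derive the gene length it implies. Tools in the submitters' processing notes are HISAT2 2.1.0, StringTie 1.3.4b, CASAVA 1.8 and edgeR, and the build is GRCh38; counting options and strand use: not given in the sources used here. Columns headed control were taken as the vector libraries. Genes kept by filterByExpr (15945, with 99.8% of counts) were scaled by TMM and compared by the quasi-likelihood test of edgeR (version 4.0.16 in R 4.3.3; robust, 2-sided, Benjamini-Hochberg over all tested genes, called at an adjusted p under 0.05). The SE is the log2 fold change divided by the square root of F. Of 58039 genes shared with GENCODE release 29, 97.5% had identical positions. The procedure was tested on simulated data. The 7 genes and all lists were chosen with earlier results of these data known, and support nothing independently. Named are the 7 genes, called genes of the signalling, brake, ligand and partner lists with a choice of those not called, the 4 smallest p of the interferon-stimulated list and its exceptions, nearest tested neighbours, and the 2 genes (mean of at least 1 CPM) most like each. Alternatives were a replicate block, size factors from DESeq2, unscaled library sizes, DESeq2 1.42.0, limma-voom (limma 3.58.1), a filter of 1 CPM in 3 libraries, no low-count filter, and omission of single libraries over the same tested genes. Protein sequences were not used here. Some genes of the lists are counted but not reported here by name or drawn.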

Additional observations from a re-analysis of the deposited data

How the results depend on the processing

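The 7 genes kept their direction in all 91 refits (13 alternatives each), and 89 moved by less than the replicate spread; the exceptions were XAF1 without vector replicate 2 (9.55) and LGALS3BP with unscaled library sizes (2.33). The interferon-stimulated list had 47 rises in every alternative. All tested genes gave 3156 to 5128 rises and 2890 to 3938 falls. Type I signalling genes that rose numbered 2 to 3 when single libraries were left out, falls among the 27 partner and relative genes 0 to 3, and rises among neighbours 1 to 2. Partner falls were also 2 with the replicate block, DESeq2 or limma-voom and 0 with unscaled library sizes, which gave 2 neighbour rises. With the replicate block IRF1 lost its call (0.36, adjusted p = 0.0586), so 3 signalling genes rose, and HSPA5 passed (-0.50, adjusted p = 0.0206). Same-numbered libraries deviated from their group means with correlations of 0.0054, -0.027 and 0.010, so no shared deviation was seen. Whether same-numbered libraries were prepared together cannot be told from these values, and the labels do not say. HSPA5 also passed with DESeq2 (-0.48) and limma-voom (-0.50). Signs turned only for genes that did not pass. With unscaled library sizes IFNAR1 was at 0.071, AC004706.3 at 0.082 and IFI27L1 at 0.027. ALOX12P2 was at -0.0035 with DESeq2 or its size factors and at -0.00011 with the 1 CPM filter. Leaving out single libraries gave -0.17 to 0.0018 for IFNAR1, -0.29 to 0.49 for AC004706.3, -0.15 to 0.13 for ALOX12P2, -0.017 to 0.29 for FAM76A and -0.66 to 0.35 for CANT1. The cause was not tested. Depth limits XAF1, EPSTI1, IFNB1, IFNL1, IFNA1, IFNK, IFNL3 and LGALS9, with 0 to 10 reads in the vector group, and SOCS1, with 14.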
